A study of Homo sapiens with 6 samples.

Results

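The nuclear receptors are ligand-regulated and orphan transcription factors, most of which share a zinc finger DNA-binding domain. They were taken here by gene symbol, as 46 genes of the superfamily, in a choice made with earlier results of these data known. Each of the 46 matched 1 of the 78932 gene identifiers in the count table, and 32 of them had enough reads to be tested, among 18040 tested genes in all. RNA enriched for poly(A) tails came from cells labelled HCC1937. HCC1937 is a breast cancer line with mutant BRCA1, classed as triple negative because estrogen receptor, progesterone receptor and amplified HER2 are missing. There were 3 control libraries and 3 libraries of cells given 8 nM docetaxel, all at 24 h. Docetaxel is a taxane that binds tubulin and stabilises microtubules. The labels name no vehicle for the controls. Replicates are labelled biological, but no separate cultures or days are named, so a p-value here measures only how these libraries vary, which may be technical.

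Most nuclear receptors bind DNA through a pair of zinc fingers, and the P box, a short stretch at the base of the first finger, touches the recognition sequence. Members also have a ligand-binding domain. Steroid receptors are held by chaperones until a hormone arrives, many others sit on DNA as pairs with a retinoid X receptor, and orphan members such as the COUP-TF and NR4A receptors act largely through how much of them is made. In breast tissue the family is best known for the estrogen and progesterone receptors, which set the clinical subtypes.

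Library totals ran from 38622062 to 41675186 counts, and a count of 0 allows up to 3 counts, or 0.0720 to 0.0777 CPM (counts per 1e6 counts of a library), for counting error only. Of the epithelial markers, KRT8 (1740 to 2160 CPM) and KRT18 (612 to 723 CPM) were abundant, while EPCAM (0.00 to 0.207 CPM), CDH1 (0.375 to 1.03 CPM) and KRT19 (0.00 to 0.314 CPM) were at or near 0. Breast cancer lines are mostly epithelial, and whether the cells were HCC1937 was not tested beyond these markers. The results below are those of cells so labelled. VIM, a mesenchymal marker, was at 352 to 373 CPM, and the immune markers PTPRC and MS4A1 had at most 0.0253 CPM. At an edgeR adjusted p under 0.05, the threshold for a call throughout, docetaxel libraries had 1649 higher and 1410 lower genes, or 1096 higher and 1869 lower when libraries were scaled by their totals only. Genes of high GC content were relatively low in the controls and high with docetaxel. The slope of log2 CPM, taken as a library's difference from the mean of all 6, on GC content was negative in the 3 controls (-0.13 to -0.05 per 10 percentage points) and positive in the 3 docetaxel libraries (0.04 to 0.10). The summed CPM of 16 epithelial markers was 2430 to 2536 in controls and 2846 to 2911 with docetaxel. KRT8 and KRT18 gave most of that sum, and only 7 of the 16 markers had enough reads to be tested. The sum of 10 immune markers was 1.92 to 3.12 in controls and 3.53 to 4.73 with docetaxel. That of 12 mesenchymal markers was 559 to 579 and 543 to 562, and that of 7 endothelial markers 19.9 to 22.3 and 17.2 to 23.4. In bulk RNA, fewer cells of a kind and less RNA per cell cannot be told apart, and the part of these shifts in the results was not tested.

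The receptors that the results turn on are close relatives, and their first zinc fingers show how close. The codons of this finger run 69 bases from the first cysteine to the end of the P box. A pattern found them in 38 of the 46 members, each in its longest GENCODE 29 protein-coding transcript (GRCh38) with a match. PPARA, PPARD, PPARG, NR1I2, NR2E1, NR2E3, NR0B1 and NR0B2 gave no match, and the pattern's fixed spacing can miss a finger. The codons are shown for the COUP-TF and NR4A receptors, whose changes are compared below, and for the glucocorticoid receptor NR3C1 as a steroid receptor. Capitals mark the 18 bases of the P box.
NR2F1: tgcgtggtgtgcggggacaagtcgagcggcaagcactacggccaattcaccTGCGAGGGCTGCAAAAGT
NR2F2: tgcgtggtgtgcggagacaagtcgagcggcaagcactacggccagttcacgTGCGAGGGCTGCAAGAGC
NR2F6: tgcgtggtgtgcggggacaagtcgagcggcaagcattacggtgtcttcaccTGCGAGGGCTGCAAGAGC
NR4A1: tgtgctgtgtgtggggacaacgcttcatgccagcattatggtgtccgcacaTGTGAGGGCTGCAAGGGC
NR4A2: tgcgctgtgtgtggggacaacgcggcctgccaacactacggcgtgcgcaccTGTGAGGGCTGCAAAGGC
NR4A3: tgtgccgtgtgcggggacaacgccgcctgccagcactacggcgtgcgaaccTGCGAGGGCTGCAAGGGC
NR3C1: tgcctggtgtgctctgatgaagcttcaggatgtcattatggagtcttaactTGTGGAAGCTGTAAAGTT
NR2F1 and NR2F2 matched at 64 of 69 bases (92.8%) and at all 23 encoded residues. NR2F1 and NR2F6 matched at 62 bases (89.9%) and 22 residues. NR4A1 matched NR4A2 at 58 bases (84.1%) and NR4A3 at 57 (82.6%), while NR4A2 and NR4A3 matched at 61 (88.4%) and encoded the same 23 residues. NR2F1 and NR3C1 matched at 38 bases (55.1%) and 13 residues. Over the 38 genes there were 33 distinct P box codon strings but 7 encoded P boxes. The 3 COUP-TF receptors shared 1 of these, NR3C1, NR3C2 and PGR another, and ESR1 and ESR2 a further one. Reads were 150 bases long, and the longest run of identical bases between transcripts of tested members was 39, in RARG and RARA, and 35 between NR2F1 and each of NR2F2 and NR2F6. A total of 7 of 496 pairs shared a run of at least 30 bases.

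Levels of the members covered a wide range (the plot of levels by gene). Compared per length, as CPM per kilobase of gene length (RPKM), 22 of the 32 tested members averaged above 1 and 14 above 5, 6 lay from 0.1 to 1, and 4 were below 0.1. NR2F6, an orphan COUP-TF relative, stood first with 104 ± 4.68 RPKM in controls and 118 ± 2.41 with docetaxel (SD, n = 3 each). The estrogen-related receptor ESRRA (28.3 ± 1.67 and 32.6 ± 0.633 RPKM), the retinoid X receptor RXRB (23.5 ± 2.37 and 25.1 ± 0.609) and NR2F1 (24.4 ± 0.460 and 21.5 ± 0.551) followed. The controls of RXRB and NR2F1 overlapped, and with docetaxel RXRB stood above NR2F1. NR1H2 (15.9 ± 0.563 RPKM in controls) and RARG (12.3 ± 0.291) came next. Reads of NR2F6 made up 22.3% to 23.5% of the members' summed CPM in controls and 24.3% to 24.7% with docetaxel, and those of NR2F1 8.47% to 9.14% and 7.29% to 7.46%. The summed CPM itself was 1188 to 1235 in controls and 1263 to 1298 with docetaxel.

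**Figure D1:**
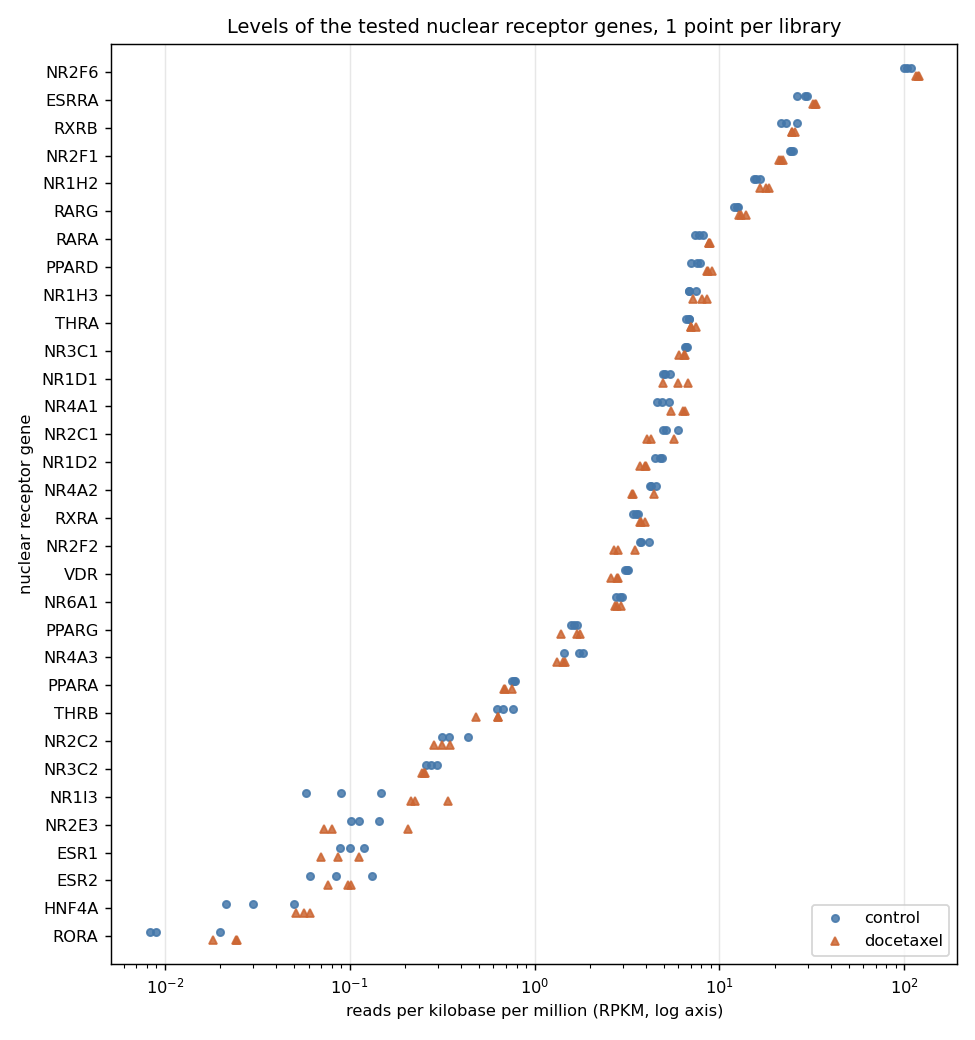
Levels (RPKM, log axis) of the 32 tested nuclear receptor genes, 1 point per library, circles for the 3 controls and triangles for the 3 docetaxel libraries. NR2F6 lies apart, with group means of 104 and 118 RPKM, and 22 genes average above 1.

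The 14 members that were not tested had at most 18 reads in any library. RXRG, NR2E1 and NR0B1 had 0 reads in all 6 libraries. PGR, the progesterone receptor, had 3 reads in docetaxel replicate 1 and 0 in the other libraries, and NR1I2, the xenobiotic sensor PXR, had 4 in docetaxel replicate 1 alone. NR5A1 ranged from 1 to 18 reads, NR5A2 from 5 to 16, RARB from 0 to 14, ESRRG from 0 to 14 and ESRRB from 0 to 7. NR0B2 and RORB each ranged from 0 to 6 reads, and NR1H4 and HNF4G from 0 to 4. With so few reads no fold is given for these genes. Among tested members the lowest total over the 6 libraries was 70 reads.

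With docetaxel, 7 tested members were called higher and 3 lower, so that 10 of 32 (31.2%) were called against 17.0% of all tested genes (9.14% higher and 7.82% lower). The 7 were NR2F6, ESRRA, NR1H2, RARA, PPARD, NR4A1 and NR1I3, and the 3 were NR2F1, NR2F2 and NR1D2. Most changes were small. The median log2 fold change was 0.00 over members and 0.01 over all tested genes, and the median absolute log2 fold change 0.19 and 0.17. In 17 members (53.1%) the 3 docetaxel values did not overlap the 3 control values, against 32.0% of all tested genes. When each library was corrected for trends with GC content and gene length (offsets), edgeR called 2 members lower, NR2F1 and NR2F2, and 0 higher, against 1.59% and 2.82% of tested genes and 4.41% in either direction. At an unadjusted p under 0.05 that fit gave 3 higher and 4 lower.

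**Figure D2:**
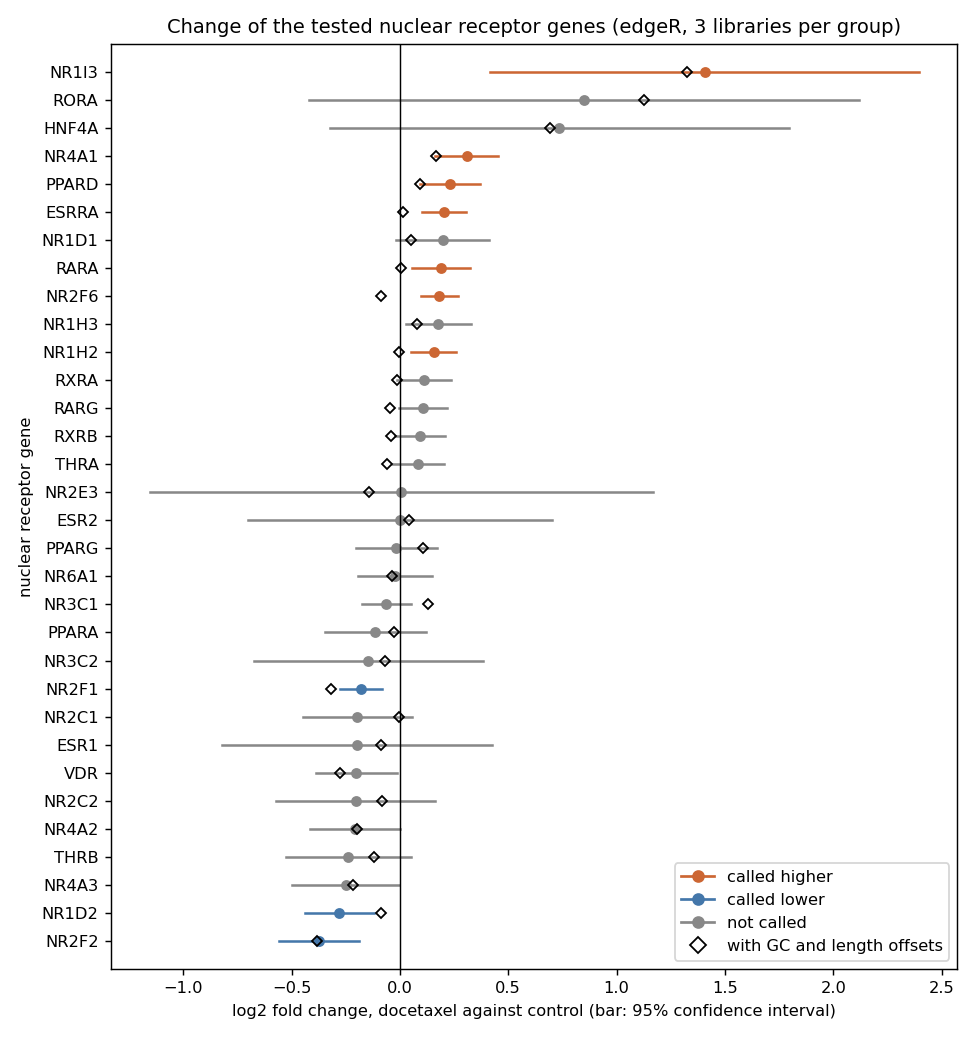
Log2 fold change of docetaxel against control for the 32 tested genes by edgeR (filled points; bars, 95% confidence interval; n = 3 libraries per group), with the value under GC and length offsets as open diamonds. NR2F2 is lowest at -0.37 and NR1I3 highest at 1.41, and the diamonds of NR2F1 and NR2F2 stay below 0.

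The COUP-TF receptors moved in both directions (the plot of paralogs by library). NR2F1 (COUP-TFI; ENSG00000175745, chromosome 5, 93583224 to 93594615, plus strand, GRCh38) is an orphan receptor of neural and other development that mostly represses. It was at 107, 109 and 105 CPM in control replicates 1 to 3 and 96.9, 92.1 and 93.9 CPM in docetaxel replicates 1 to 3. All docetaxel values lay below all controls. On the log2 scale it fell by 0.18 (SE 0.05; edgeR adjusted p = 0.0076), or by 0.32 (SE 0.04; adjusted p = 8.1e-06) with offsets, and it stayed called in all 15 alternatives. NR2F2 (COUP-TFII; ENSG00000185551, chromosome 15, 96325938 to 96340263, plus strand), known for vein and mesenchyme identity, was at 27.1, 24.4 and 24.2 CPM in controls and 22.5, 18.4 and 17.4 CPM with docetaxel. Its groups did not overlap either, with docetaxel replicate 1 nearest to the controls. This was a log2 fold change of -0.37 (edgeR adjusted p = 0.0040, SE 0.09) and -0.38 (adjusted p = 0.0065) with offsets, and without docetaxel replicate 3 it was -0.30 (adjusted p = 0.060). NR2F6 (ENSG00000160113, chromosome 19, 17231883 to 17245940, minus strand) went the other way, with 276, 265 and 290 CPM in controls and 319, 307 and 317 CPM with docetaxel. Every docetaxel value was above every control, with a log2 fold change of 0.18 (edgeR adjusted p = 0.0021, SE 0.04). With offsets it was -0.09 (adjusted p = 0.20). NR2F6 has the highest GC content of these 3 transcripts, 71.1%, against 59.0% for NR2F1 and 49.8% for NR2F2.

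**Figure D3:**
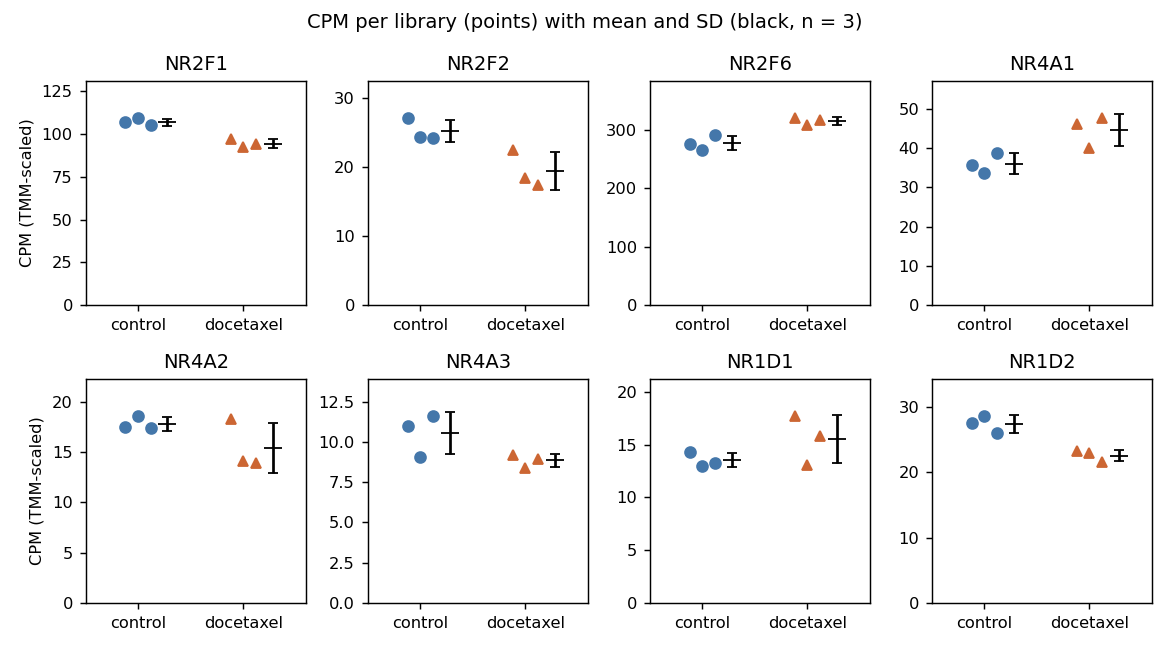
TMM-scaled CPM per library for 8 receptors, circles for the 3 control and triangles for the 3 docetaxel libraries, with the group mean and SD in black; each panel starts at 0. NR2F1, NR2F2 and NR1D2 are lower in every docetaxel library than in every control, NR2F6 and NR4A1 higher, and the groups of NR4A2, NR4A3 and NR1D1 overlap.

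Both falling COUP-TF genes have an antisense neighbour, and whether reads were counted by strand is not given in the sources used here. NR2F1 shares 2425 bases with NR2F1-AS1 on the other strand, which had 224 to 353 reads and a log2 fold change of 0.02 (edgeR adjusted p = 0.95, SE 0.15). NR2F1 itself had 3514 to 4628 reads. NR2F2 shares 1424 bases with NR2F2-AS1, which had 17 to 62 reads against 673 to 1069 for NR2F2. Over the family, 15 of 32 tested members and 6 of the 10 called ones overlap a gene on the opposite strand that averaged at least 10 counts, and reads from such partners cannot be told apart. NR2F6, NR1H2, NR4A1 and PPARD, among the called genes, have no partner of this kind.

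The first promoter window of NR2F1, shown because this gene was called in all 15 alternatives, spans chr5:93582972-93583271 on the plus strand (RefSeq, GRCh38.p14; 250 bases before the start to 50 after). It holds none of the 5 motifs searched on both strands, and no letters are in capitals. These motifs were the cyclic AMP response element TGACGTCA, its core TGACG (which TGACGTCA contains), the AP-1 site TGAGTCA, the nuclear receptor hexamer AGGTCA and the E box CACGTG.
NR2F1: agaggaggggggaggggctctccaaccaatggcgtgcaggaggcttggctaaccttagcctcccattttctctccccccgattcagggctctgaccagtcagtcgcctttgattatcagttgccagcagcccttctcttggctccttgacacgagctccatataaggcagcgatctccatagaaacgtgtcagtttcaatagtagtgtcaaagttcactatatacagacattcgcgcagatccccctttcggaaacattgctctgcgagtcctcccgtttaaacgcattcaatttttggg
Of 34943 promoter windows of this length, 1.84% held TGACGTCA, 24.5% TGACG, 4.96% TGAGTCA, 13.8% AGGTCA and 7.23% CACGTG. Of 96 windows from 41 members, the shares were 2.08%, 21.9%, 4.17%, 16.7% and 9.38%. Several windows can belong to 1 gene, as in 24 members.

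The NR4A receptors are immediate early genes, orphan receptors made within minutes of many stimuli. NR4A1 (NUR77; ENSG00000123358, chromosome 12, 52022832 to 52059507, plus strand) was at 35.6, 33.5 and 38.8 CPM in controls and 46.2, 39.9 and 47.5 CPM with docetaxel. The groups did not overlap, with docetaxel replicate 2 closest to the controls. NR4A1 was 1.24-fold higher (log2 fold change 0.31, edgeR adjusted p = 0.0028, SE 0.07), and 0.17 (adjusted p = 0.16) with offsets. NR4A2 (NURR1; ENSG00000153234, chromosome 2) was at 17.5, 18.6 and 17.4 CPM in controls and 18.3, 14.1 and 13.9 CPM with docetaxel. Docetaxel replicate 1 lay among the controls and the other two below them. Its log2 fold change of -0.21 (95% confidence interval -0.41 to -0.00) was not called (edgeR adjusted p = 0.17), but without docetaxel replicate 1 it was -0.37 (adjusted p = 0.011). NR4A3 (NOR1; ENSG00000119508, chromosome 9) was at 11, 9.06 and 11.6 CPM in controls and 9.19, 8.39 and 8.95 CPM with docetaxel. Its groups overlapped through control replicate 2, and the log2 fold change of -0.25 was not called (edgeR adjusted p = 0.17).

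The NR4A3 promoter, chr9:99821635-99821934 on the plus strand, is shown because this receptor is often induced with NR4A1 and the TGACG core occurs in it 4 times, counting CGTCA as its reverse complement. Capitals mark those matches, which describe the letters alone. NR4A3 was not called, and the promoter windows of NR4A1, which was called higher, hold no match to any of the motifs searched.
NR4A3: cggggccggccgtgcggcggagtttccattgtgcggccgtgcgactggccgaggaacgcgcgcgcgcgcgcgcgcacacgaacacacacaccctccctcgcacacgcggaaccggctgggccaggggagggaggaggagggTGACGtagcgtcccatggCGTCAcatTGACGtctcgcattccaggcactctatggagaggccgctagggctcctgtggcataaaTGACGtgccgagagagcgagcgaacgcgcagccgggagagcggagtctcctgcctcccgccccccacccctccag
Other immediate early genes gave a reference for NR4A1. Of 12 tested genes of that list, 8 were called, all higher, against 9.14% of tested genes, with a median log2 fold change of 0.55. FOS, an AP-1 subunit, was at 16.5, 17.0 and 16.5 CPM in controls and 68.3, 67.7 and 72.2 CPM with docetaxel, 4.17-fold higher (edgeR adjusted p = 8.5e-22). The groups lay far apart. EGR1, a zinc finger factor, was 8.05-fold, JUN 2.85-fold and JUNB 1.67-fold higher. The fold of NR4A1, 1.24, was smaller than that of these 4 genes, which were named for having the smallest p of their list. These differences were not tested.

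Ratios of relatives within 1 library do not depend on the library's scaling. These 7 pairs were chosen after values were seen, and with 3 libraries against 3 the exact two-sided permutation test allows no p below 0.1. The ratio of NR2F1 to NR2F6 was 0.388, 0.409 and 0.360 in controls and 0.304, 0.300 and 0.296 with docetaxel, a difference of -0.36 on the log2 scale. The ratio of NR4A2 to NR4A1 was 0.490, 0.556 and 0.448 in controls and 0.396, 0.353 and 0.293 with docetaxel (-0.52 on the log2 scale). In both pairs every docetaxel ratio was below every control ratio. The same separation held for NR2F2 to NR2F6 (-0.56), NR4A3 to NR4A1 (-0.55), NR1D2 to NR1D1 (-0.47) and THRB to THRA (-0.33), and the exact permutation p was 0.1 for each of these 6 pairs (0.117 adjusted over 7). NR2F2 to NR2F1 differed by -0.20 with overlapping groups (exact permutation p = 0.3). In all 7 pairs the gene with the lower GC content is the numerator.

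No tested steroid receptor was called, against 17.0% of all tested genes, and 4 genes are too few to compare with that share. NR3C1, the glucocorticoid receptor (ENSG00000113580, chromosome 5), was the one with most reads, at 60.5, 61.1 and 59.9 CPM in controls and 59.7, 58.9 and 55.3 CPM with docetaxel. The docetaxel values lay just below the controls. The log2 fold change was -0.06 (95% confidence interval -0.18 to 0.05, edgeR adjusted p = 0.52), and 0.13 (adjusted p = 0.17) with offsets. ESR1, estrogen receptor alpha, had 65, 52 and 57 reads in controls and 46, 59 and 37 with docetaxel, with a log2 fold change of -0.20 (95% confidence interval -0.82 to 0.43). ESR2, estrogen receptor beta, had 62, 43 and 30 reads in controls and 45, 35 and 47 with docetaxel, with 0.00 (-0.70 to 0.70). The groups overlapped for both estrogen receptors, and intervals this wide leave changes of either sign possible. Per length ESR1 stood 29th and ESR2 30th of the 46 members. ESR1 shares 7936 bases with SYNE1 on the other strand, which had 265 to 391 reads. ESR2 shares 142202 bases with SYNE2 on the other strand, which had 1677 to 2172 reads. The part of those reads in the values and ranks of ESR1 and ESR2 was not tested. NR3C2, the mineralocorticoid receptor, had 62 to 78 reads and a log2 fold change of -0.15. Of the 4 tested steroid receptors edgeR and limma-voom called 0, as did DESeq2, which gave no adjusted p for ESR1, ESR2 and NR3C2. By edgeR the unadjusted p was under 0.05 for 0 of them.

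Of 13 tested glucocorticoid receptor targets, 2 rose and 3 fell, against 9.14% higher and 7.82% lower over all tested genes. The median log2 fold change was -0.11. DUSP1, a MAP kinase phosphatase that is also on the immediate early list, was at 43.6, 41.9 and 47.1 CPM in controls and 67.2, 67.0 and 68.0 CPM with docetaxel, 1.53-fold higher (edgeR adjusted p = 1.2e-08). GADD45A, a stress response gene, was 1.21-fold higher. The thiamine transporter SLC19A2 was at 23.0, 29.1 and 24.5 CPM in controls and 20.2, 17.3 and 19.3 CPM with docetaxel (log2 fold change -0.43, edgeR adjusted p = 0.0011). FKBP5, a co-chaperone that limits the receptor, had -0.23 (adjusted p = 0.014), with adjusted p from 0.062 to 0.17 without control replicate 2, docetaxel replicate 2 or docetaxel replicate 3. With offsets it was at -0.09 (adjusted p = 0.54). The kinase gene SGK1, named after its values were seen, had -0.11 (adjusted p = 0.043), 0.04 with offsets, and was called without docetaxel replicate 1 alone among the fits that left out 1 library (adjusted p 0.078 to 0.17 in the other 5). With offsets the list had 2 members higher, DUSP1 and GADD45A, and 4 lower, SLC19A2 with CEBPD, NFKBIA and PER1, the last 3 named after their values were seen. Among 16 tested chaperones of steroid receptors, 4 rose (CDC37, BAG1, PPP5C and HSP90AB1) and 1, the same FKBP5, fell. The shares over all tested genes were again 9.14% and 7.82%, and the list's median was 0.02. HSP90AB1, which encodes a cytosolic HSP90 and was named after its values were seen, was at 2620, 2640 and 2620 CPM in controls and 2740, 2890 and 2900 CPM with docetaxel, 1.08-fold higher (edgeR adjusted p = 0.019). Without control replicate 1 or 3 or docetaxel replicate 2 or 3 its adjusted p was 0.077 to 0.14. CDC37, BAG1 and PPP5C were 1.10-fold to 1.13-fold higher, and each lost its call without docetaxel replicate 3, BAG1 also without control replicate 1, control replicate 2 or docetaxel replicate 2, and PPP5C without control replicate 2 or 3. With offsets CDC37 was at 0.02 (adjusted p = 0.86) and PPP5C at 0.07 (adjusted p = 0.43), so that of the 5 called chaperones BAG1 and HSP90AB1 stayed called.

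ESRRA (ENSG00000173153, chromosome 11, 64305572 to 64316743, plus strand) is an orphan receptor that drives mitochondrial genes. It was at 91.8, 82.0 and 89.9 CPM in controls and 99.0, 102 and 103 CPM with docetaxel. The groups did not overlap, and the gene rose by 0.20 on the log2 scale (edgeR adjusted p = 0.0047, SE 0.05). With offsets it was 0.02 (adjusted p = 0.92). ESRRA shares 284 bases with TRMT112 on the other strand, which had 8401 to 9439 reads, more than ESRRA's 3495 to 3978, and a log2 fold change of 0.18 (adjusted p = 0.0036). The part of those reads in the value of ESRRA was not tested. Of 15 tested targets of the estrogen-related receptors, 2 rose and 2 fell, against 9.14% and 7.82% of all tested genes. Their median log2 fold change was 0.04. TFAM, which maintains mitochondrial DNA, was at 42.8, 45.0 and 42.5 CPM in controls and 37.2, 32.2 and 28.6 CPM with docetaxel. All 3 docetaxel libraries were below the controls (log2 fold change -0.41, edgeR adjusted p = 3.0e-04, and -0.22 with offsets, adjusted p = 0.048). Cytochrome c, CYCS, had -0.22 (adjusted p = 0.0025), but -0.09 with offsets, where it was not called (adjusted p = 0.20). MDH2 and ATP5F1B, of the citrate cycle and the ATP synthase, rose 1.09-fold and 1.07-fold, and MDH2 lost its call without any 1 library other than docetaxel replicate 1 and ATP5F1B without any 1 library. With offsets neither was called (0.06 and 0.05, adjusted p = 0.37 and 0.44). The list then had TFAM lower and 3 members higher, SLC25A4, COX6A1 and NDUFA4, which were named after their values were seen.

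Of the retinoid receptors, RARA was called higher and the other tested members were not. RARA (ENSG00000131759, chromosome 17, 40309192 to 40357643, plus strand), the retinoic acid receptor alpha, was at 38.5, 35.0 and 36.7 CPM in controls and 41.7, 41.5 and 42.4 CPM with docetaxel. The difference, 0.19 on the log2 scale (edgeR adjusted p = 0.041), was 0.01 with offsets. Of the fits that left out 1 library RARA was called in 1, that without control replicate 1 (adjusted p 0.098 to 0.17 in the other 5). RARG, at 61.7 to 64.5 CPM in controls and 65.5 to 71.7 CPM with docetaxel, had 0.11 (adjusted p = 0.20). RXRA, the common partner of other receptors, was at 41.2 to 44.0 and 44.9 to 48.0 CPM, with 0.11 (adjusted p = 0.25). RXRB was at 102, 83.5 and 89.6 CPM in controls and 96.8, 100 and 95.9 CPM with docetaxel. Its control replicate 1 was above every docetaxel library, and without it the log2 fold change of 0.09 became 0.17 (adjusted p = 0.039). RXRB shares 244 bases with SLC39A7, which had 8285 to 9049 reads.

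The genes that make and carry retinoic acid went both ways. Of 7 tested retinoid metabolism genes 2 rose and 1 fell (median log2 fold change -0.03), against 9.14% and 7.82% of all tested genes. Of 9 tested retinoic acid receptor targets 2 were called, both higher (median 0.12). The 2 were on both lists. CRABP2, which carries retinoic acid to its receptor, was at 180, 151 and 178 CPM in controls and 192, 206 and 196 CPM with docetaxel (log2 fold change 0.22, edgeR adjusted p = 0.0055). DHRS3, which reduces retinal back to retinol, had 0.26 (adjusted p = 0.0041, and 0.099 without docetaxel replicate 3). RDH11, a retinol dehydrogenase, was at 81.1, 84.5 and 84.0 CPM in controls and 71.9, 63.8 and 61.8 CPM with docetaxel. It fell by 0.34 on the log2 scale (edgeR adjusted p = 1.0e-04), and with offsets it stayed lower (-0.24, adjusted p = 0.0029), while CRABP2 and DHRS3 were not called (adjusted p = 0.085 and 0.12).

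Among the lipid and xenobiotic sensors 3 of 6 tested genes were called, all higher, against 9.14% of all tested genes called higher. PPARD (ENSG00000112033, chromosome 6, 35342558 to 35428191, plus strand), a fatty acid sensor, was at 33.9, 31.4 and 34.9 CPM in controls and 40.6, 38.1 and 38.9 CPM with docetaxel. The groups did not overlap (log2 fold change 0.23, edgeR adjusted p = 0.016, SE 0.07), and the call was lost without control replicate 2 (adjusted p = 0.10), docetaxel replicate 1 (0.091) or docetaxel replicate 3 (0.056). NR1H2 (LXR beta; ENSG00000131408, chromosome 19, 50329653 to 50382982, plus strand), an oxysterol receptor, was at 84.5, 82.3 and 88.2 CPM in controls and 95.3, 89.1 and 99.6 CPM with docetaxel. Its groups also stood apart, by less than 1 CPM at the nearest values (log2 fold change 0.16, edgeR adjusted p = 0.034, SE 0.05). It lost the call without control replicate 1 or 2 or docetaxel replicate 1 or 3 (adjusted p 0.096 to 0.23). NR1I3 (CAR; ENSG00000143257, chromosome 1, 161229666 to 161238302, minus strand), a xenobiotic sensor of liver, had 19, 8 and 12 reads in controls and 27, 28 and 43 with docetaxel. The log2 fold change of 1.41 (95% confidence interval 0.42 to 2.40, edgeR adjusted p = 0.042) rested on these few reads, and without any 1 library other than control replicate 1 the adjusted p was 0.053 to 0.24. NR1I3 shares 1079 bases with TOMM40L on the other strand, which had 402 to 509 reads. With offsets none of these 3 was called, at log2 fold changes of 0.09 for PPARD, -0.00 for NR1H2 and 1.32 for NR1I3.

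The other sensors were not called. NR1H3 (LXR alpha) was at 31.0, 33.8 and 30.9 CPM in controls and 32.5, 39.1 and 36.7 CPM with docetaxel, with a log2 fold change of 0.18 (edgeR adjusted p = 0.099, and 0.035 without docetaxel replicate 1). Docetaxel replicate 1 lay among the controls. PPARG, the adipocyte regulator, had -0.02 and PPARA, the regulator of fatty acid oxidation, -0.11. Of 13 tested PPAR targets 3 rose and 1 fell, against 9.14% and 7.82% of all tested genes, with a median of 0.09. FABP3, a fatty acid binding protein, was at 8.34, 8.07 and 6.54 CPM in controls and 10.4, 12.9 and 11.4 CPM with docetaxel, 1.52-fold higher (edgeR adjusted p = 9.8e-04). ACADM, the medium chain acyl-CoA dehydrogenase, was at 153, 166 and 152 CPM in controls and 135, 119 and 129 CPM with docetaxel (log2 fold change -0.30, adjusted p = 8.1e-05), but with offsets it was at -0.11 and not called (adjusted p = 0.12). ACADVL, the very long chain enzyme, rose by 0.15 on the log2 scale and HADHA, of the same pathway, by 0.12. ACADVL lost its call without docetaxel replicate 2 (adjusted p = 0.057) and HADHA without any 1 library other than docetaxel replicate 1. With offsets ACADVL was at 0.02 (adjusted p = 0.89) and HADHA at 0.11 (adjusted p = 0.066), neither called, while FABP3 stayed called at 0.57. The list then had 3 members called, all higher, of which HADHB and CPT2, named after their values were seen, were not called before. Of 10 tested LXR targets 1 was called, against 17.0% of all tested genes in either direction. This was the desaturase SCD, at 905, 944 and 935 CPM in controls and 844, 839 and 848 CPM with docetaxel. It fell by 0.14 on the log2 scale (edgeR adjusted p = 0.0070), and by 0.11 (adjusted p = 0.037) with offsets.

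Among the thyroid hormone and vitamin D receptors 0 of 3 were called by edgeR, DESeq2 or limma-voom. Over all tested genes edgeR called 17.0%, and 3 genes are too few to compare with that share. By edgeR 1 of the 3, VDR, had an unadjusted p under 0.05. VDR was at 17.9, 17.5 and 18.2 CPM in controls and 16.0, 14.8 and 15.8 CPM with docetaxel. The groups did not overlap, but the log2 fold change of -0.20 (SE 0.09) had an edgeR adjusted p of 0.14, and -0.28 (adjusted p = 0.063) with offsets. THRA, at 48.3 to 50.4 CPM in controls and 51.6 to 54.7 CPM with docetaxel, had 0.08, and THRB, at 6.87 to 8.35 and 5.28 to 6.98 CPM, -0.24. THRA shares 1081 bases with NR1D1 and 2926 with MED24 on the other strand. Of 10 tested vitamin D receptor targets 2 were called, both higher (median log2 fold change 0.15), against 9.14% of all tested genes called higher. CDKN1A, the cell cycle inhibitor p21 and also a p53 target, was at 44.9, 47.4 and 48.4 CPM in controls and 73.7, 77.7 and 69.2 CPM with docetaxel, 1.57-fold higher (edgeR adjusted p = 2.2e-09). The other, CD14, is also on the immune list, had 1.29 to 1.62 CPM in controls and 1.82 to 3.08 CPM with docetaxel (adjusted p = 0.038), and of the fits that left out 1 library was called in 1, that without docetaxel replicate 1 (adjusted p 0.057 to 0.23 in the other 5). With offsets CDKN1A stayed called at 0.52 and CD14 did not (0.63, adjusted p = 0.18). Of 9 tested thyroid hormone receptor targets 1 was called, against 17.0% of all tested genes in either direction. This was the corepressor gene HR, 1.22-fold higher (edgeR adjusted p = 0.0039, and 0.054 without control replicate 2). With offsets HR was at 0.08 (adjusted p = 0.58), and 1 other target, BCL3, named after its values were seen, was called lower.

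Of the clock receptors NR1D1 and NR1D2 (REV-ERB alpha and beta), heme-binding repressors of the clock, NR1D2 was called lower and NR1D1 was not called. NR1D2 (ENSG00000174738, chromosome 3, 23945260 to 23980618, plus strand) was at 27.6, 28.6 and 26.0 CPM in controls and 23.2, 22.9 and 21.6 CPM with docetaxel. All docetaxel values were below all controls, with a fall by 0.28 on the log2 scale (edgeR adjusted p = 0.011, SE 0.08), and -0.09 (adjusted p = 0.65) with offsets. Without control replicate 2 the adjusted p was 0.067, and without docetaxel replicate 3 it was 0.073. NR1D2 shares 1332 bases with NKIRAS1 on the other strand, which had 882 to 1160 reads and a log2 fold change of -0.17. NR1D1 (ENSG00000126368, chromosome 17) was at 14.3, 13 and 13.3 CPM in controls and 17.7, 13.1 and 15.8 CPM with docetaxel. Docetaxel replicate 2 lay among the controls, and the log2 fold change of 0.20 was not called (edgeR adjusted p = 0.23). With offsets NR1D1 was at 0.05 (adjusted p = 0.88). RORA, an activator at the same sites, had 6 to 16 reads. Of the 2 NR1D2 promoter windows, chr3:23945871-23946170 on the plus strand holds more of the motifs and is shown because E boxes are where the CLOCK complex binds. Capitals mark 2 matches to CACGTG and 2 to TGACG.
NR1D2: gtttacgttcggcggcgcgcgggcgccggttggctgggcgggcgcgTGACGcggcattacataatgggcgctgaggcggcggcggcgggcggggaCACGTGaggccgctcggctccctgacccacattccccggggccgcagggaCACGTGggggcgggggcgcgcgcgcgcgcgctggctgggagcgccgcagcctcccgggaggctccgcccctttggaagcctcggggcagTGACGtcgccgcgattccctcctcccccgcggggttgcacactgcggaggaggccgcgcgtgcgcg
Of 17 tested clock genes 2 were called, both lower, against 7.82% of tested genes, with a median log2 fold change of -0.03. CLOCK, the acetyltransferase partner of BMAL1, was at 21.2, 23.6 and 22.2 CPM in controls and 17.9, 18.5 and 18.1 CPM with docetaxel (log2 fold change -0.30, edgeR adjusted p = 0.012). CRY1, a repressor, had -0.30 (adjusted p = 0.021). With offsets these genes were at -0.06 and -0.09 and were not called. The offsets fit called 1 other clock gene lower, PER1 (-0.19, edgeR adjusted p = 0.039), named after its values were seen. CLOCK lost its call without control replicate 2 or docetaxel replicate 3, and CRY1 without these, control replicate 3 or docetaxel replicate 2.

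The remaining receptors were not called. NR2C1, a testicular orphan receptor, was at 32.1, 38.4 and 33.0 CPM in controls and 36.5, 26.3 and 27.4 CPM with docetaxel. Docetaxel replicate 1 lay among the controls, and without it the log2 fold change of -0.20 (edgeR adjusted p = 0.31) became -0.38 (adjusted p = 0.0016). NR2C2, in the testicular group with NR2C1, had -0.20, and NR6A1, the germ cell nuclear factor, -0.02. HNF4A, a liver regulator, had 9 to 24 reads and the photoreceptor gene NR2E3 9 to 26. Of the 4 tested HNF4, testicular and tailless receptors edgeR and limma-voom called 0, as did DESeq2, which gave no adjusted p for HNF4A and NR2E3. By edgeR the unadjusted p was under 0.05 for 0 of them. Over all tested genes edgeR called 17.0%, and 4 genes are too few to compare with that share.

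The direction of a member's change followed the GC content of its transcript (the plot of change against GC content). Of 18 tested members with a GC content of at least 50%, 15 had a positive log2 fold change, and of 14 under 50%, 12 had a negative one. Over the 32 members Spearman's rho was 0.55 and Pearson's r 0.23, a description across genes that share the same 6 libraries. All tested genes showed the same trend, with a median log2 fold change of -0.19 among the genes with the lowest GC content (22.8% to 41.3%) and 0.18 among those with the highest (58.3% to 83.9%), each holding 20% of the genes. In that highest class 1038 of 3284 genes (31.6%) were called higher and 4 lower. It holds 13 of the tested members, of which 6 were called higher, and NR2F1 is 1 of the 4 called lower. With offsets the log2 fold change of 9 members changed sign.

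**Figure D4:**
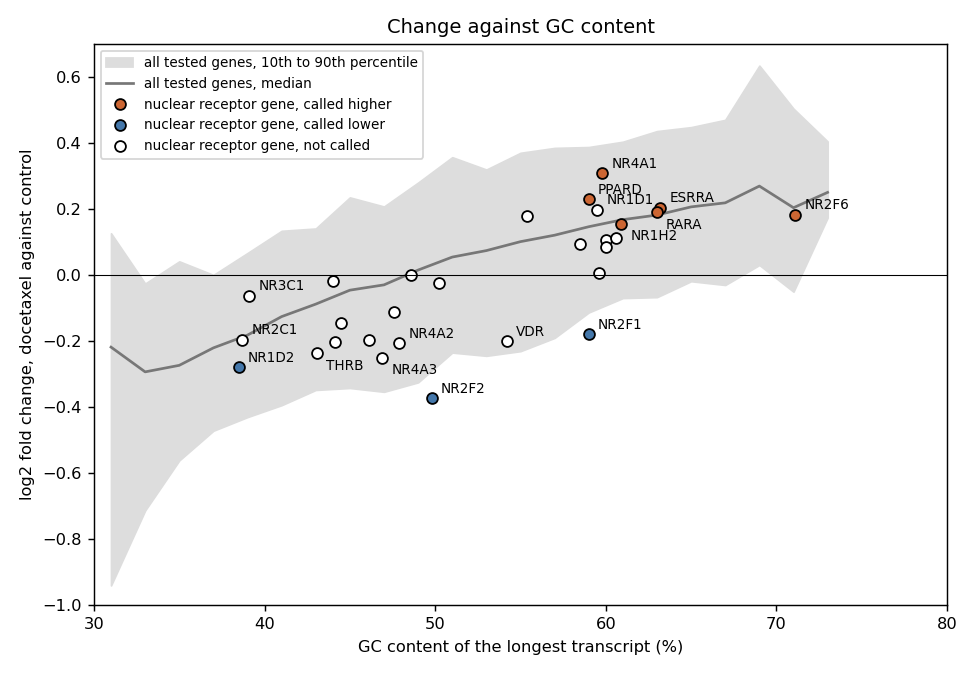
Log2 fold change of docetaxel against control by GC content of the longest transcript; points are nuclear receptor genes, the line and band are the median and the 10th to 90th percentile of all tested genes. Most members rise with the line, while NR2F1 and NR2F2 lie below the band; NR1I3 (1.41), RORA (0.85) and HNF4A (0.74), all with few reads, are above the plotted range.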

How the data were processed

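Poly(A)-enriched RNA of 6 libraries labelled HCC1937, 3 controls and 3 with 8 nM docetaxel for 24 h, was read as 150-base pairs, per the labels. What the authors deposited is a table of raw counts for 78932 Ensembl gene identifiers, with gene length as the other column. Per the submitters' processing notes, featureCounts 2.0.1 and MultiQC 1.11 were used with GRCh38. Not given in the sources used here are the aligner, annotation release, strand setting and treatment of overlapping or multi-mapping reads. Columns were tied to samples by library name and groups came from the labels. Pairs of libraries within groups differed beyond sampling noise (dispersion index at least 4.92).

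Genes were filtered with filterByExpr, scaled by TMM and tested, two-sided, with edgeR 4.0.16 (glmQLFit, robust, and glmQLFTest) in R 4.3.3. Benjamini-Hochberg adjustment covered all 18040 tested genes, and a call needed an adjusted p under 0.05. CPM are TMM-scaled, and RPKM divide them by the deposited gene length in kilobases. Each standard error matches the p of its test.

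The members and lists were chosen with earlier results of these data known. By the rule for naming, called members, ESR1, ESR2, PGR, NR3C1 and the NR4A genes, the 6 uncalled members with the highest RPKM, every untested member and up to 4 genes a list with the smallest p were named. Other members were named after their values were seen. Lists are described by counts and medians, with no test. A gene of the clock list and a finger sequence are not reported here, and the list's values were computed without that gene.

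The alternatives were RLE scaling, scaling by library size, DESeq2 1.42.0, limma-voom (limma 3.58.1), no filter, a filter of 1 CPM in 3 libraries, a replicate block, loess offsets (span 0.5) on GC content and log2 gene length, both together, and each library left out in turn. GC content is that of the longest GENCODE 29 transcript, with a value for 91.0% of tested genes. The main edgeR fit was tested on simulated data. The offsets, the other alternatives and the sequence searches were not. Finger motifs were searched in the codons of protein-coding GENCODE 29 transcripts, longest first, rather than in proteins, as first planned. Promoter windows came from RefSeq and covered 41 of the 46 members, and chromosome 8 was left out.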

Additional observations from a re-analysis of the deposited data

How the results depend on the processing

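Of the 46 members, 14 had too few reads to test, and with 3 libraries a group the permutation tests could not reach 0.05. The replicate numbers in the labels are not said to mark shared cultures. Deviations of same-numbered libraries correlated at 0.008, 0.007 and 0.016. These values are small, although each library correlated best with its own number. The main fit did not take the numbers as pairs, and the replicate block was run as an alternative. With the replicate block 4 members were called higher and 3 lower, and 1283 and 1106 of all genes. It changed no direction of a tested member other than NR2E3 (-0.10).

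The 7 members called higher became 3 with library-size scaling, 4 without a filter and 0 with GC and length offsets, with or without the replicate block. At an unadjusted p under 0.05 the offsets fit in edgeR gave 3 higher. DESeq2 called 6 and limma-voom 7 with no offsets, and neither was run with them. Leaving out 1 library gave 3 to 7 higher and 1 to 5 lower. The higher count was 3 without control replicate 2 or docetaxel replicate 3 and 4 without docetaxel replicate 1, and the lower count was 5 without docetaxel replicate 1 and 1 without docetaxel replicate 3. The lower count was 2 without control replicate 2 and with offsets, with or without the replicate block, and 3 in all remaining settings. Over all genes, higher calls were 1096 with library-size scaling, 508 with offsets, 353 with offsets and the replicate block, and 990 to 1397 with 1 library left out. Lower calls were 287, 202 and 740 to 1841 in the last 3 of these settings. The cause of these shifts was not tested.

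Signs that turned with offsets, and with offsets and the replicate block, were those of NR2F6 (-0.085 in both), RXRB (-0.040 and -0.038), NR1H2 (-0.0037 and -0.0049), RARG (-0.045 in both), THRA (-0.059 in both), RXRA (-0.011 and -0.012), NR3C1 (0.13 in both), PPARG (0.11 and 0.10), NR2E3 (-0.14 and -0.25) and SGK1 (0.042 in both). ESR2, at 0.00, was at -0.0082 with RLE scaling, -0.0085 with DESeq2, -0.037 with library-size scaling and -0.22 to 0.34 with 1 library left out. NR2E3, at 0.01, was at -0.0030 with RLE scaling, -0.032 with library-size scaling, -0.0028 with DESeq2, -0.14 with limma-voom and -0.64 to 0.25 with 1 library left out. With 1 library left out NR6A1 ranged from -0.054 to 0.00091 and PPARG from -0.092 to 0.057. The cause was not tested. DESeq2 gave no adjusted p for the few-read genes NR3C2, NR1I3, NR2E3, ESR1, ESR2, HNF4A, RORA and CD14.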
